A study of Mus musculus with 24 samples.

Results

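The 36 genes described here encode nuclear receptors, transcription factors that bind DNA directly and, for many of them, change activity when a small lipophilic ligand is bound. They were picked by gene symbol from the probe annotation of the array. Of the 36 genes, 34 had at least 1 probe, and 67 of the 45281 probes on the array belonged to them. A probe was kept when its signal was above background (detection p under 0.05) on at least 4 arrays, which held for 41 of the 67 probes and for 25 of the genes. In the whole series 10765 of 19057 genes with a probe were measured in this way.

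The arrays were hybridised with liver RNA of male C57BL/6J mice labelled as 12 weeks old, which were either obese from their diet or lean controls. Each mouse had sham surgery, in which the abdomen was opened and the liver handled, or lost 70% or 80% of the liver, and the liver was taken 6 h later. The comparison asks how liver gene expression responds early to loss of liver mass, and whether the response differs with diet. The 6 groups were obese sham, lean sham, obese 70%, lean 70%, obese 80% and lean 80%, with 4 arrays each and 24 in all. All mice shared the strain, the sex, the age label and the time after surgery, and the sources used here do not give the composition of the diets. The obesity came from diet alone, with no altered gene.

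Nuclear receptors sense lipids, hormones and foreign compounds. Many bind DNA as pairs with a retinoid X receptor, often at repeats of the half-site AGGTCA, and recruit coactivators or corepressors to nearby genes. In liver the family controls bile acid synthesis and export, cholesterol and fatty acid metabolism, drug clearance and the hepatocyte gene programme.

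Between 15316 and 17463 probes were detected per array, and arrays of 1 group correlated at 0.977 or more across genes. The arrays lay on 4 slides of 6 arrays, each with 2 groups. Slides could be compared within a model only for obese sham against lean sham, lean 70% against lean sham, obese 80% against lean 80%, obese 80% against obese 70%, and the diet interaction at 80%. In the other comparisons the slide and the group cannot be told apart. All 6 hepatocyte markers were detected on all 24 arrays, with summed intensities of 132000 to 144000 on obese arrays and of 127000 to 156000 on lean arrays. The summed intensity of the neutrophil markers (7 listed, 4 passing, 1 of them detected on all arrays) was 142 to 168 in obese sham, 1050 to 1910 in obese 70% and 3320 to 5230 in obese 80%, and in lean mice it was 155 to 248 after sham surgery, 1140 to 3570 after 70% and 1010 to 2680 after 80%. Values below are log2 intensities after background correction and quantile normalization, and levels of different genes are not compared because each probe binds differently. Log2 fold changes come from a limma model with 4 arrays per group and are given with standard errors (SE), and p-values were adjusted over all 10765 genes. A gene is said to have risen or fallen when the adjusted value was under 0.05. Nothing in the labels ties a replicate to more than its array, so these p-values rest on the spread between arrays, which may be technical in part. In whole liver tissue, fewer cells of a type and less RNA per cell cannot be told apart.

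Most receptors known from hepatocytes gave a signal. Measured were 5 of 6 fatty acid and sterol sensors, both xenobiotic sensors, 5 of 6 retinoid X and retinoic acid receptors, 9 of 12 hepatocyte nuclear factors and other orphan receptors, 2 of 4 steroid receptors, 1 of 3 thyroid hormone and vitamin D receptors, and 1 of 3 NR4A receptors. Nr1h2, which encodes the oxysterol receptor LXR beta, and Nr2f1 had no probe. Probes of Thra and Thrb (thyroid hormone receptors), Nr3c2 (mineralocorticoid receptor), Pgr (progesterone receptor), Hnf4g, Nr2c2 and Nr4a1 were detected on 0 arrays. The probes of Rara (retinoic acid receptor alpha) and Nr4a3 were each detected on 1 array. These 9 genes have no level here, and nothing follows about their RNA below the detection limit of their probes.

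Hepatectomy lowered more of these genes than it raised. In obese mice 11 of the 25 measured genes fell after 70% hepatectomy and 0 rose, and after 80% hepatectomy 13 fell and 2 rose. In lean mice 11 fell and 4 rose after 70%, and 10 fell and 6 rose after 80%. Over all genes tested, 24.6% fell and 22.2% rose after obese 70%, 28.7% fell and 24.1% rose after obese 80%, 26.2% fell and 21.4% rose after lean 70%, and 31.0% fell and 23.9% rose after lean 80%. Counting either direction, 11 and 15 members changed in obese 70% and obese 80%, against a background of 46.8% and 52.8% of all genes, and 15 and 16 members changed in lean 70% and lean 80%, against 47.6% and 55.0%. The share of members that changed in either direction was thus near the background in obese 70%, and fewer members rose than the background share in obese 70% and obese 80%.

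The median log2 fold change of the 25 members was -0.23 after obese 70%, -0.42 after obese 80%, -0.36 after lean 70% and -0.17 after lean 80%. For all genes it lay between -0.06 and -0.02 in the same comparisons. By fitted value, called changes of at least 2-fold were made by 7 members in obese 70%, 7 in obese 80%, 5 in lean 70% and 5 in lean 80%, where 8.96%, 11.9%, 10.7% and 13.7% of all genes reached that size.

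Across the 4 hepatectomy comparisons, 7 of the 25 genes (28%) fell in every one, compared with 13.3% of all genes. They were Nr1h4, Nr1h3, Nr1i3, Rxrg, Nr5a2, Esrra and Nr2f6. Not all 7 held under every setting. The obese 70% call of Nr5a2 was lost with slides as a random block (adjusted p = 0.0581), and the lean 70% call of Esrra with the slide in the model (0.0993). No member rose in all 4, which 11.1% of all genes did, but this count turns on the processing. Vdr rose in all but obese 70% and was called there as well without background correction (0.23, adjusted p = 0.0267) and under upper-quartile scaling (0.44, 0.0301). At least 1 rise was seen in 6 genes, or 24% of the members (Nr1i2, Vdr, Hnf4a, Rora, Rarb and Nr4a2), against 37.2% of all genes. Of these, Vdr and Nr4a2 were detected on 0 sham arrays and passed the detection filter through hepatectomy arrays alone. Their direction against sham is therefore not independent of the filter. Ppara, Rxra, Rarg and Nr6a1 did not pass the test in any of the 4. No member rose in 1 comparison and fell in another, and 2.94% of all genes did. The groups did not overlap for 11 members in obese 70%, 14 in obese 80%, 13 in lean 70% and 13 in lean 80%, where 46.1%, 51.4%, 40.7% and 44.7% of all genes did not overlap.

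**Figure D1:**
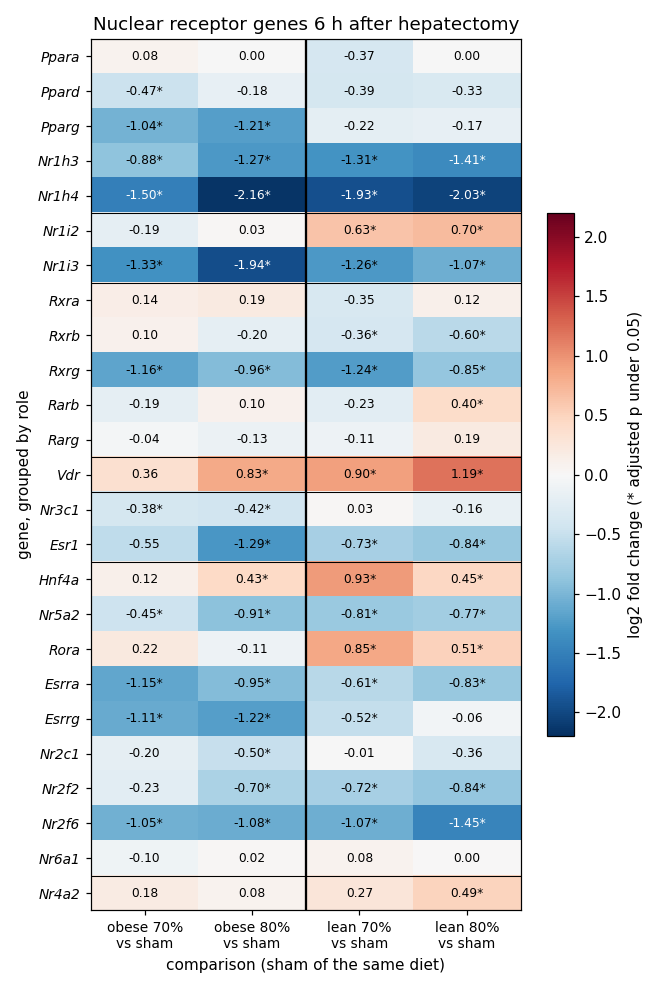
Log2 fold changes of the 25 measured nuclear receptor genes (rows, grouped by role) in obese and lean mice, each hepatectomy against sham of the same diet (columns), with an asterisk where the adjusted p was under 0.05. Cells of genes not detected in 1 of the groups show fitted values without an exact size. The value of Nr1h4 in obese 80% is -2.16, and the rows of Nr1h4, Nr1h3, Nr1i3, Rxrg, Nr5a2, Esrra and Nr2f6 are below 0 with an asterisk in all 4 columns.

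Start-site sequences were taken from RefSeq for GRCm38.p6, which listed 52 promoters for 33 of the 36 genes. The windows below are those of 5 genes that fell in all 4 comparisons and 3 that rose in at least 2. They are shown because both directions occur within 1 family, many members of which bind at repeats of AGGTCA. They run 5′ to 3′ up to a transcript start, and end where the gene's annotated span begins if that comes first. Capitals mark the half-site AGGTCA on either strand. The Nr1h4 window is chr10:89506659-89506908 on the minus strand and lies inside the span of a longer Nr1h4 transcript. The others are Nr1i3 (chr1:171213720-171213933, plus strand), Nr2f6 (chr8:71381968-71382202, minus), Rxrg (chr1:167598112-167598361, plus), Nr5a2 (chr1:136960449-136960698, minus), Vdr (chr15:97908297-97908546, minus), Nr1i2 (chr16:38294850-38295074, minus) and Hnf4a (chr2:163506607-163506810, plus).
Nr1h4: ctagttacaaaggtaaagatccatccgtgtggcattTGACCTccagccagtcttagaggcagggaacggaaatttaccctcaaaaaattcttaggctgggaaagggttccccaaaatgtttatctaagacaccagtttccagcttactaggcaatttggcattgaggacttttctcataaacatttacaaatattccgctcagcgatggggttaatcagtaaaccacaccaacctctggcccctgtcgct
Nr1i3: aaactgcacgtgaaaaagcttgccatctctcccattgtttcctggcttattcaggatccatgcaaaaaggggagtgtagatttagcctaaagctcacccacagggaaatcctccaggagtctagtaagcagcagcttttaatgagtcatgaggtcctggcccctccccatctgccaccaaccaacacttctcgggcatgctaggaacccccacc
Nr2f6: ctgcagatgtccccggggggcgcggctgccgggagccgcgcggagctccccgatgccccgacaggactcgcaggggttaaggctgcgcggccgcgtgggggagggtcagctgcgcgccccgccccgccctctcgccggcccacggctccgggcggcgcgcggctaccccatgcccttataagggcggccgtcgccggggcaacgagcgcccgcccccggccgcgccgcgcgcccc
Rxrg: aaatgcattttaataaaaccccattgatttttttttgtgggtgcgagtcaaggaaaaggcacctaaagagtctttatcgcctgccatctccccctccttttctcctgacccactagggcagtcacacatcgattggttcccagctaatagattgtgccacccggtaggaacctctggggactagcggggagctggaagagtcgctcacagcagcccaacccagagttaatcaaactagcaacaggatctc
Nr5a2: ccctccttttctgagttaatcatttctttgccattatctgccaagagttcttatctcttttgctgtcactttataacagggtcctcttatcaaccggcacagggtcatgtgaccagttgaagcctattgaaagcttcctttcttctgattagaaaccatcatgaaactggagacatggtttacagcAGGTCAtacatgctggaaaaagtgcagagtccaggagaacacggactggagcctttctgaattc
Vdr: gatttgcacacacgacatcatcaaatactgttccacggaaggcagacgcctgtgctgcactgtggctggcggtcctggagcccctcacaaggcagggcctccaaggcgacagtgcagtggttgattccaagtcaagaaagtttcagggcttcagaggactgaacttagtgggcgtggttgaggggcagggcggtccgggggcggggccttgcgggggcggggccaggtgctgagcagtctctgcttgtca
Nr1i2: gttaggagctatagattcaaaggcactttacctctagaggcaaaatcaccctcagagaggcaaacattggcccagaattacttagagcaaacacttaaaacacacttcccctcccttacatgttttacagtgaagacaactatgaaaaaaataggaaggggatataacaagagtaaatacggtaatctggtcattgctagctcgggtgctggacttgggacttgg
Hnf4a: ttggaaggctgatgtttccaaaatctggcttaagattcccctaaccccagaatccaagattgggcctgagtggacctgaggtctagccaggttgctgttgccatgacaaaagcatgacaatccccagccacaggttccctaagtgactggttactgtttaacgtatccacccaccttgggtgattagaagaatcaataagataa

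The half-site stood 214 bases before the start in Nr1h4 and 64 bases before it in Nr5a2, and it did not occur in the other 6 windows. Of all 250-base windows before a start, 14.02% of 32851 held AGGTCA on either strand, and 9 of the 52 windows of the members (17.31%) did, in Nr1h4, Nr5a2, Nr6a1, Pparg, Rarg, Rxra, Rxrg and Thrb. The E-box CACGTG occurred in the windows of Nr1i3, Rara and Thrb, and in 6.02% of all windows. The AP-1 site TGACTCA occurred in those of Esrrg and Nr1i3, and in 4.46% of all. Base composition, taken over the full 250 bases before a start, differed widely, with 44.4% G and C in Nr1h4, 53.2% in Nr1i3 and 82.4% in Nr2f6. The printed windows of Nr1i3 and Nr2f6 are shorter than that. The median was 60.4% over the 52 member windows and 52.4% over all. A match is a run of letters in these windows and says nothing of binding.

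Nr1h4 encodes FXR, the bile acid receptor that restrains bile acid synthesis and raises bile acid export. In obese mice its levels were 11.72, 11.76, 11.61 and 11.70 after sham surgery, 10.15, 10.77, 10.00 and 9.85 after 70% hepatectomy and 9.67, 9.58, 9.28 and 9.62 after 80%. In lean mice they were 11.42, 11.60, 11.75 and 11.97 after sham surgery, 10.37, 9.55, 9.76 and 9.34 after 70% and 9.21, 9.53, 10.10 and 9.76 after 80%. Every hepatectomy array read below every sham array of its diet. Among members whose fall has an exact size, Nr1h4 had the largest in all 4 comparisons, with log2 fold changes of -1.50 ± 0.20 (SE; adjusted p = 1.87e-06) in obese 70%, -2.16 ± 0.20 (5.08e-09) in obese 80%, -1.93 ± 0.20 (3.68e-08) in lean 70% and -2.03 ± 0.20 (1.14e-08) in lean 80%. With the slide in the model, the lean 70% value was -1.84 (adjusted p = 0.000375). These are falls to between 2.84-fold and 4.46-fold below sham. The summed hepatocyte markers were 127000 to 153000 in lean 70% and 143000 to 156000 in lean sham, and their part in the fall was not tested.

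Nr1h3 encodes LXR alpha, an oxysterol receptor that raises cholesterol export and fatty acid synthesis. Its levels in obese mice were 10.33, 10.32, 10.22 and 10.18 after sham surgery, 9.39, 9.60, 9.39 and 9.15 after 70% hepatectomy and 8.93, 9.03, 9.02 and 8.99 after 80%. The lean arrays read 10.40, 10.69, 10.45 and 10.68 after sham surgery, 9.50, 8.89, 9.39 and 9.20 after 70% and 9.02, 8.97, 9.51 and 9.11 after 80%. No hepatectomy array reached the lowest sham array of its diet. Nr1h3 fell, with log2 fold changes of -0.88 ± 0.13 in obese 70% (adjusted p = 4.99e-06), -1.27 ± 0.13 in obese 80% (1.47e-08), -1.31 ± 0.13 in lean 70% (1.09e-08) and -1.41 ± 0.13 in lean 80% (2.35e-09). A second probe of Nr1h3 gave -0.91, -1.28, -0.80 and -0.86 in the same order, so the size in lean mice depended on the probe and the direction did not.

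The 3 PPAR genes, which encode fatty acid sensors, did not move alike. Ppara, the main PPAR of hepatocytes, passed in none of the 4 hepatectomy comparisons, and its largest value was -0.37 ± 0.23 in lean 70% (adjusted p = 0.187). One lean 80% array read 7.14, and the 3 others 5.92 to 6.11. Ppard fell in obese 70%, with a log2 fold change of -0.47 ± 0.18 (adjusted p = 0.0365), with groups that overlapped, and its values in the other 3 comparisons were -0.18 to -0.39 without passing. That call was lost without obese sham array 2 or 3 or without obese 70% array 1, 2 or 3 (adjusted p 0.0697 to 0.103), and without the filter on dim probes (0.0630). In lean 70% Ppard was called lower under upper-quartile scaling (-0.45, adjusted p = 0.0395).

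Pparg encodes a receptor that drives fat storage and is known to rise in steatotic liver. In obese mice it read 8.01, 8.33, 8.43 and 8.41 after sham surgery, 7.31, 7.18, 7.37 and 7.17 after 70% hepatectomy and 7.14, 7.08, 7.05 and 7.09 after 80%. In lean mice it read 6.35, 6.16, 6.70 and 7.52 after sham surgery, 6.92, 6.66, 6.24 and 6.03 after 70% and 6.60, 6.63, 6.41 and 6.39 after 80%. The obese hepatectomy arrays all lay below the obese sham arrays, and lean sham array 4, at 7.52, was above every lean hepatectomy array. Pparg fell, with log2 fold changes of -1.04 ± 0.20 in obese 70% (adjusted p = 0.000188) and -1.21 ± 0.20 in obese 80% (2.50e-05). In lean mice the values were -0.22 ± 0.20 and -0.17 ± 0.20, neither past the threshold.

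Nr1i3 and Nr1i2 encode CAR and PXR, which sense drugs and other foreign compounds and induce cytochrome P450 genes. They moved in opposite directions in lean mice. Nr1i3 levels in obese mice were 10.11, 9.97, 10.01 and 10.32 after sham surgery, 8.73, 8.67, 9.04 and 8.65 after 70% hepatectomy and 7.98, 8.50, 8.16 and 7.99 after 80%. In lean mice they were 9.42, 9.49, 9.34 and 9.86 after sham surgery, 8.43, 8.17, 8.18 and 8.30 after 70% and 8.79, 8.15, 8.44 and 8.43 after 80%. All 16 hepatectomy arrays lay below the 8 sham arrays. The falls were -1.33 ± 0.14 in obese 70% (adjusted p = 5.57e-08), -1.94 ± 0.14 in obese 80% (7.40e-11), -1.26 ± 0.14 in lean 70% (1.05e-07) and -1.07 ± 0.14 in lean 80% (7.98e-07). Of its 3 other passing probes, 2 gave -1.97 to -0.79 in the 4 comparisons, and a dim one, detected on 14 arrays, gave -0.43 to -0.19.

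Nr1i2 read 8.85, 8.91, 9.06 and 8.76 in obese sham, 9.05, 8.01, 8.73 and 9.02 in obese 70% and 8.74, 9.23, 9.25 and 8.47 in obese 80%. It read 8.64, 8.87, 8.62 and 8.34 in lean sham, 8.94, 9.02, 9.43 and 9.59 in lean 70% and 9.29, 9.48, 9.08 and 9.44 in lean 80%. The lean hepatectomy arrays were above all lean sham arrays, while the obese groups overlapped. In lean mice Nr1i2 rose by 0.63 ± 0.20 after 70% (adjusted p = 0.0124) and by 0.70 ± 0.20 after 80% (0.00483). The values in obese mice were -0.19 ± 0.20 and 0.03 ± 0.20, neither past the threshold. The rise at lean 70% was lost without lean 70% array 4 (adjusted p = 0.0513) and with the slide in the model (0.59, adjusted p = 0.269).

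**Figure D2:**
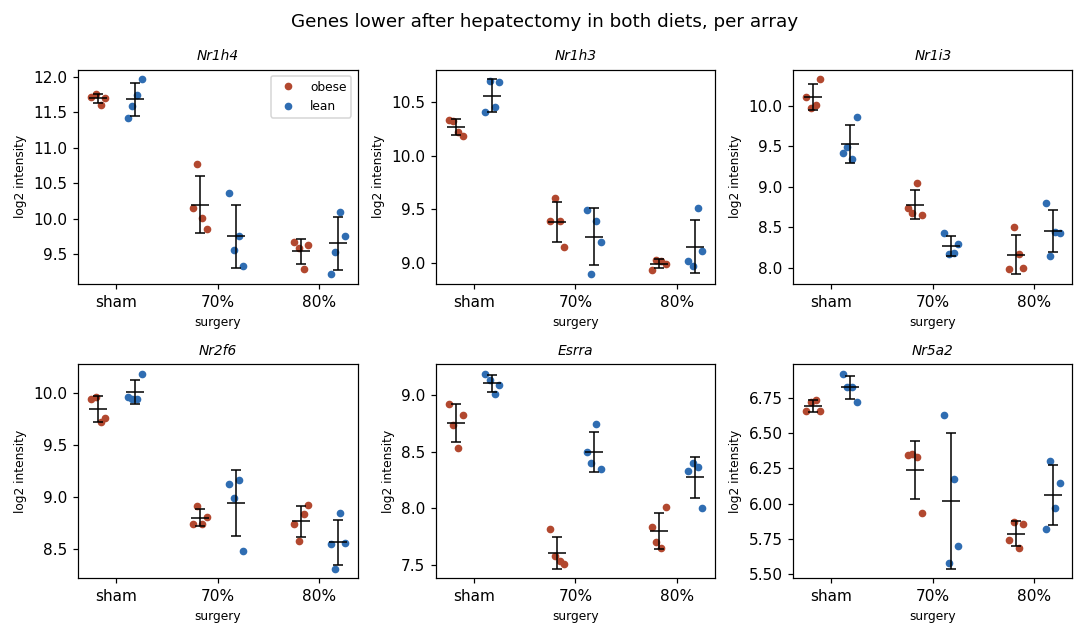
Log2 intensity (vertical axes) of 6 genes that fell in all 4 hepatectomy comparisons, on each of the 24 arrays, by surgery (horizontal axes), with obese arrays left of lean arrays and bars for the group mean and SD (n = 4). In every panel the hepatectomy arrays lie below the sham arrays of the same diet, with Nr1h4 at 9.28 to 10.77 in obese hepatectomy and 11.61 to 11.76 in obese sham livers.

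Among the retinoid X receptors, the shared partners of the receptors above, the dim member Rxrg fell and Rxra did not pass. Rxrg fell, with log2 fold changes of -0.96 ± 0.16 in obese 80% (adjusted p = 2.07e-05) and -0.85 ± 0.16 in lean 80% (7.76e-05), and in obese 70% with no exact size (2.14e-06). It was detected on 2 obese 70%, 3 obese 80% and 3 lean 80% arrays and on all sham arrays. In lean 70% it was detected on 0 of 4 arrays, which makes it at least 2.05-fold lower than in lean sham (adjusted p = 7.42e-07). Rxra, the main RXR of liver, read 6.48, 6.90, 6.61 and 6.77 in obese sham, 6.51, 7.09, 6.83 and 6.91 in obese 70% and 6.51, 6.93, 6.91 and 7.19 in obese 80%. The lean arrays read 7.40, 7.25, 7.01 and 7.11 after sham surgery, 7.09, 6.80, 6.75 and 6.72 after 70% and 7.02, 7.34, 7.57 and 7.31 after 80%. Hepatectomy and sham overlapped in obese mice, and the 4 changes were -0.35 to 0.19 without passing. In lean 70% Rxra was called lower without background correction (adjusted p = 0.0465), under upper-quartile scaling (0.0424), with an offset of 50 (0.0468) and with a filter for detection on all 4 arrays of a group (0.0469).

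Rxrb fell, with log2 fold changes of -0.60 ± 0.13 in lean 80% (adjusted p = 0.000340) and -0.36 ± 0.13 in lean 70% (0.0221), and did not pass in obese mice (0.10 and -0.20). With the slide in the model the lean 70% value turned to 0.07 (adjusted p = 0.845), and the call was also lost without lean sham array 1 or 2 or lean 70% array 1 or 2 (0.0510 to 0.0811) and with slides as a random block (0.169). Its other probes did not follow it at lean 80%, with -0.16 and 0.26. The retinoic acid receptor gene Rarb, itself a textbook target of retinoic acid, read 5.21, 4.90, 5.42 and 4.95 in obese sham, 5.34, 4.79, 4.67 and 4.93 in obese 70% and 5.15, 5.34, 5.44 and 4.95 in obese 80%. In lean mice it read 5.11, 5.10, 4.91 and 5.07 after sham surgery, 4.71, 4.96, 5.02 and 4.58 after 70% and 5.16, 5.53, 5.45 and 5.63 after 80%, so the lean 80% arrays lay above the lean sham arrays and the lean 70% arrays reached below them. Rarb rose in lean 80% by 0.40 ± 0.15 (adjusted p = 0.0266), a call lost without lean sham array 3 or lean 80% array 2 or 4 (0.0635 to 0.0827), under upper-quartile scaling (0.0502) and with slides as a random block (0.0737). Rarg stayed within -0.13 to 0.19 in the 4 comparisons and did not pass. It was near background, detected on 17 arrays, with 2 in lean sham and 2 in lean 70%, so a change there could be missed.

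Vdr, the vitamin D receptor gene, rose in obese 80%, lean 70% and lean 80%. It is known in liver mainly from cells other than hepatocytes. Its levels in obese mice were 4.41, 4.29, 4.36 and 4.40 after sham surgery, 4.53, 4.83, 4.54 and 4.99 after 70% hepatectomy and 5.03, 5.52, 5.24 and 5.01 after 80%. In lean mice they were 4.28, 4.33, 4.44 and 4.37 after sham surgery, 5.01, 5.49, 5.31 and 5.22 after 70% and 5.80, 5.97, 5.08 and 5.34 after 80%. No sham array of either diet detected it, 2 obese 70% arrays did, and all 4 arrays of each other hepatectomy group did. Vdr was therefore at least 1.32-fold higher in obese 80% (adjusted p = 8.98e-05), at least 1.31-fold higher in lean 70% (4.14e-05) and at least 1.61-fold higher in lean 80% (7.53e-07) than in sham. In obese 70% the fitted difference was 0.36 ± 0.16 (adjusted p = 0.0636), not past the threshold. Since Vdr passed the detection filter through hepatectomy arrays alone, its direction against sham is not independent of the filter. A second probe rose in lean 70% (0.69) and lean 80% (0.46) and another, detected on 5 arrays, gave 0.44 in lean 70% and -0.21 in lean 80%. The summed intensity of stellate cell and fibroblast markers (8 listed, 7 passing, 5 detected on all arrays) was 5240 to 5710 in obese sham, 5870 to 6470 in obese 70% and 5120 to 8340 in obese 80%. In lean mice it was 3790 to 4220 after sham surgery, 5320 to 7860 after 70% and 5840 to 6660 after 80%. The Kupffer cell and macrophage markers, of which Cd5l was detected on no array, summed to 2030 to 2830 in obese sham, 1510 to 1960 in obese 70% and 1420 to 2350 in obese 80%, and to 2020 to 3270, 1460 to 4180 and 1380 to 1830 in lean mice after sham surgery, 70% and 80%. The cholangiocyte markers (6 listed, 2 passing, Krt19 and Epcam detected on no array) summed to 365 to 521 in obese sham, 942 to 2950 in obese 70% and 1960 to 3550 in obese 80%. In lean mice their sums were 362 to 514 after sham surgery, 545 to 1550 after 70% and 708 to 3100 after 80%. The 2 passing cholangiocyte markers were Sox9 and Krt7. Krt7 was near its detection limit, with 1 lean sham and 2 lean 70% arrays detected, so these sums rest mainly on Sox9. The part of these cell types in the Vdr result was not tested.

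Of the steroid receptors, Esr1 encodes estrogen receptor alpha and Nr3c1 the glucocorticoid receptor. Esr1 fell, with log2 fold changes of -1.29 ± 0.25 in obese 80% (adjusted p = 0.000146), -0.84 ± 0.25 in lean 80% (0.00684) and -0.73 ± 0.25 in lean 70% (0.0191). In obese 70% it was -0.55 ± 0.25 (adjusted p = 0.0762), not past the threshold. The obese arrays, at 6.58 to 7.31 after 70% and 6.10 to 6.57 after 80%, lay below the obese sham arrays, at 7.37 to 7.84, and both lean comparisons overlapped. The lean 70% call was lost without lean sham array 2 or 3 or lean 70% array 3 or 4 (adjusted p 0.0513 to 0.0680). Nr3c1 was near the detection limit of its single probe, with 3 obese sham arrays and 0 of the 8 obese hepatectomy arrays detected. It was at least 1.10-fold lower in obese 70% (adjusted p = 0.0422) and at least 1.12-fold lower in obese 80% (0.0232), with overlapping groups. The first call was lost without any 1 of 6 arrays (obese sham 1, 3 or 4, or obese 70% 1, 2 or 4, adjusted p 0.0531 to 0.160) and the second without obese sham array 3 or 4 or obese 80% array 3 (0.0557 to 0.0997), and the first also with slides as a random block (0.110). In lean mice Nr3c1 was detected on 1 sham array, 2 arrays after 70% and 1 after 80%, and its values were 0.03 and -0.16.

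Hnf4a encodes a receptor that keeps up the hepatocyte gene programme, and it rose. In obese mice it read 11.64, 11.73, 11.92 and 11.81 after sham surgery, 11.82, 11.83, 11.95 and 11.98 after 70% hepatectomy and 12.13, 12.25, 12.30 and 12.16 after 80%. In lean mice it read 11.47, 11.30, 11.43 and 11.23 after sham surgery, 12.16, 12.28, 12.58 and 12.16 after 70% and 11.71, 11.59, 11.87 and 12.07 after 80%. The lean hepatectomy arrays and the obese 80% arrays were above all sham arrays of their diet, and obese 70% overlapped with obese sham. Hnf4a rose by 0.43 ± 0.11 in obese 80% (adjusted p = 0.00161), 0.93 ± 0.11 in lean 70% (1.48e-07) and 0.45 ± 0.11 in lean 80% (0.000989). In obese 70% it was 0.12 ± 0.11, not past the threshold.

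Rora encodes a receptor of the circadian clock and of lipid metabolism. It read 8.26, 8.51, 8.32 and 8.42 in obese sham, 8.48, 8.49, 8.65 and 8.76 in obese 70% and 8.27, 8.27, 8.26 and 8.25 in obese 80%. The lean levels were 8.12, 8.19, 8.61 and 8.30 after sham surgery, 9.01, 9.42, 9.10 and 9.12 after 70% and 9.04, 8.61, 8.53 and 9.07 after 80%. Only lean 70% lay fully above its sham group. Rora rose by 0.85 ± 0.13 in lean 70% (adjusted p = 5.00e-06) and by 0.51 ± 0.13 in lean 80% (0.00153), and gave 0.22 and -0.11 in obese mice without passing.

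Esrra and Esrrg encode estrogen-related receptors, which act with PGC-1 coactivators on mitochondrial genes. Esrra levels in obese mice were 8.92, 8.74, 8.53 and 8.82 after sham surgery, 7.81, 7.57, 7.53 and 7.51 after 70% hepatectomy and 7.83, 7.70, 7.65 and 8.02 after 80%. The lean levels were 9.19, 9.13, 9.01 and 9.09 after sham surgery, 8.50, 8.40, 8.75 and 8.35 after 70% and 8.33, 8.40, 8.36 and 8.0 after 80%. All hepatectomy arrays lay below the sham arrays of their diet. Esrra fell, with log2 fold changes of -1.15 ± 0.11 in obese 70% (adjusted p = 2.02e-08), -0.95 ± 0.11 in obese 80% (2.17e-07), -0.61 ± 0.11 in lean 70% (0.000109) and -0.83 ± 0.11 in lean 80% (1.47e-06), and a second probe gave -1.29, -0.88, -0.61 and -0.91. With the slide in the model the lean 70% value was -0.45 (adjusted p = 0.0993).

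Esrrg was dimmer, with levels in obese mice of 5.99, 5.76, 5.72 and 5.68 after sham surgery, 4.85, 4.40, 4.68 and 4.79 after 70% and 4.58, 4.50, 4.41 and 4.79 after 80%. In lean mice they were 5.09, 5.03, 4.72 and 5.06 after sham surgery, 4.43, 4.48, 4.40 and 4.52 after 70% and 5.64, 4.99, 4.59 and 4.44 after 80%. It was detected on all 4 obese sham arrays and on 2 obese 70% and 1 obese 80% array, so the falls in obese 70% (adjusted p = 1.28e-05) and obese 80% (2.41e-06) have no exact size. In lean 70% it was detected on 0 arrays and was at least 1.06-fold lower (adjusted p = 0.0153), a call lost with slides as a random block (0.0547) or in the model (0.298). A second, dimmer probe read -0.97 in obese 70% and -0.94 in obese 80%, both past the threshold, and -0.02 in lean 70%.

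Nr2f6, an orphan receptor gene of the COUP-TF group, fell in all 4 comparisons. Its levels were 9.95, 9.96, 9.72 and 9.76 in obese sham, 8.74, 8.91, 8.74 and 8.80 in obese 70% and 8.74, 8.57, 8.83 and 8.92 in obese 80%. In lean mice they were 9.96, 9.95, 9.95 and 10.19 after sham surgery, 9.13, 8.99, 9.16 and 8.48 after 70% and 8.54, 8.31, 8.84 and 8.55 after 80%. Every hepatectomy array was below the sham arrays of both diets. The changes were -1.05 ± 0.13 in obese 70% (adjusted p = 5.52e-07), -1.08 ± 0.13 in obese 80% (2.28e-07), -1.07 ± 0.13 in lean 70% (3.37e-07) and -1.45 ± 0.13 in lean 80% (1.96e-09). A second probe, detected on 19 arrays, gave -0.94 to -0.70.

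Nr5a2 encodes LRH-1, an activator of bile acid synthesis genes. It fell, with log2 fold changes of -0.91 ± 0.16 in obese 80% (adjusted p = 3.87e-05), -0.45 ± 0.16 in obese 70% (0.0218), -0.81 ± 0.16 in lean 70% (0.000173) and -0.77 ± 0.16 in lean 80% (0.000254). The obese 70% call was lost without obese 70% array 4 (adjusted p = 0.0931) and with slides as a random block (0.0581), and its 2 dimmer probes did not pass in any of the 4 comparisons (-0.40 to 0.04). Nr2f2 encodes COUP-TFII, which is known from venous endothelium. It fell, with log2 fold changes of -0.72 ± 0.15 in lean 70% (adjusted p = 0.000301) and -0.84 ± 0.15 in lean 80% (4.22e-05). Of the 4 arrays of each group, 3 detected it in lean 70% and 3 in lean 80%. In obese 80%, where 2 arrays detected it, it fell with no exact size (0.000380), and the obese 70% value was -0.23. The summed intensity of endothelial markers (7 listed, 6 passing, all 6 detected on all arrays) was 3430 to 5550 in lean 70%, 3940 to 4230 in lean 80% and 3570 to 4420 in lean sham, and its part in the result was not tested. Nr2c1 fell in obese 80%, with -0.50 ± 0.16 (adjusted p = 0.0117), and Nr6a1 lay between -0.10 and 0.08 throughout.

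The NR4A genes are early-response genes, and at 6 h Nr4a2 alone was measured. It was detected on 0 sham arrays, 2 obese 70%, 0 obese 80%, 2 lean 70% and 2 lean 80% arrays, and so passed the filter through hepatectomy arrays alone. In lean 80% it was at least 1.07-fold higher than in lean sham (adjusted p = 0.0352), with overlapping groups. The fitted difference was 0.49 and ranged from 0.22 to 0.70 as single arrays were left out. The call was lost without lean sham array 3 or 4 or lean 80% array 1 or 2 (adjusted p 0.0632 to 0.227), and with slides as a random block (0.0744).

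Diet changed a smaller number of these genes than surgery did. Between obese sham and lean sham livers 4 members were higher and 2 lower, 6 of 25, where 12.2% of all genes differed (6.10% higher and 6.09% lower). Pparg was the largest, 1.61 ± 0.20 higher in obese sham (adjusted p = 8.48e-06), or 3.06-fold, with all obese arrays above all lean arrays. Esrrg was 0.81 ± 0.17 higher (0.00241), Nr1i3 0.58 ± 0.14 higher (0.00780) and Hnf4a 0.42 ± 0.11 higher (0.0111) in obese sham. Rxra was lower in obese sham (-0.50 ± 0.15, adjusted p = 0.0260), and so was Esrra (-0.35 ± 0.11, 0.0453). The groups did not overlap for 8 members, against 20.0% of all genes. With the slide in the model Pparg (1.48, adjusted p = 0.000970) and Esrrg (0.90, 0.00122) stayed past the threshold. Nr1i3 (0.52, 0.102), Hnf4a (0.33, 0.117), Rxra (-0.50, 0.122) and Esrra (-0.28, 0.304) did not. Within slide 1 alone, which held 2 obese and 4 lean sham arrays, Pparg (adjusted p = 0.0414) and Esrrg (0.0121) passed as well. Hnf4a was also lost without obese sham array 3 (0.0526), Rxra without lean sham array 1 or 2 or obese sham array 1 or 3 (0.0653 to 0.0867), and Esrra without any 1 of 11 arrays (0.0507 to 0.178), among them all 4 lean sham arrays, and with slides as a random block (0.0766). The summed stellate cell markers given above were also higher in obese sham (5240 to 5710) than in lean sham (3790 to 4220). Singly, Dcn (0.50, adjusted p = 0.00728) and Reln (0.37, 0.0232) were called higher, and the other passing stellate cell markers were not called. The summed Kupffer cell and macrophage markers overlapped (2030 to 2830 in obese sham and 2020 to 3270 in lean sham). The part of these cell types in the Pparg difference was not tested.

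After 70% hepatectomy, 8 members differed between obese and lean livers, 3 higher and 5 lower, where 30.6% of all genes differed (16.9% higher and 13.7% lower). Higher in obese livers were Pparg by 0.79 ± 0.20 (adjusted p = 0.00485) and Nr1i3 by 0.51 ± 0.14 (0.00906), as after sham surgery, and Rxrb by 0.34 ± 0.13 (0.0470). Lower in obese livers were Esrra (-0.89 ± 0.11, 5.45e-06), Rora (-0.57 ± 0.13, 0.00162), Nr1i2 (-0.55 ± 0.20, 0.0424) and Hnf4a (-0.40 ± 0.11, 0.00693). Vdr was lower too (adjusted p = 0.0123), with 2 obese and 4 lean arrays detected and no exact size. The groups did not overlap for 7 members, against 26.8% of all genes, and Nr1i2 was the called gene whose groups did. The Nr1i2 difference ranged from -0.66 to -0.31 as single arrays were left out, and its call was lost without lean 70% array 3 or 4 or obese 70% array 2 or 3 (adjusted p 0.0701 to 0.206). Vdr was lost without lean 70% array 2 (0.0513) and Rxrb without any 1 of 13 arrays (0.0502 to 0.126). With slides as a random block Hnf4a (-0.34, adjusted p = 0.0630), Nr1i2 (-0.56, 0.120) and Rxrb (0.27, 0.224) were past the threshold no longer.

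After 80% hepatectomy 5 members differed, 2 higher and 3 lower in obese livers, where 22.9% of all genes differed (13.5% higher and 9.46% lower). Pparg (0.58 ± 0.20, adjusted p = 0.0414) and Hnf4a (0.40 ± 0.11, 0.0101) were higher in obese livers. Rora (-0.55 ± 0.13, 0.00305), Esrra (-0.47 ± 0.11, 0.00452) and Rxra (-0.43 ± 0.15, 0.0377) were lower. Hnf4a was thus higher in obese than in lean livers after sham surgery and 80% hepatectomy and lower after 70%, by values of similar size. For 3 members the groups did not overlap, against 20.9% of all genes. With the slide in the model Rora (-0.54, adjusted p = 0.0305) and Rxra (-0.56, 0.0459) remained past the threshold, and Pparg (0.69, 0.0774), Esrra (-0.38, 0.0714) and Hnf4a (0.24, 0.195) were not. Within slide 4 alone Pparg passed (0.69, adjusted p = 0.0124), and Rora (0.0703), Rxra (0.101), Esrra (0.161) and Hnf4a (0.256) did not. Esr1, which was -0.61 ± 0.25 in obese against lean 80% livers without passing (adjusted p = 0.0830), passed with slides as a random block (-0.72, 0.0487), with the slide in the model (-1.08, 0.00860) and within slide 4 (-1.08, 0.0300). Hnf4a was 0.19 (0.196) under upper-quartile scaling. The Pparg call was lost without any 1 of the 8 arrays compared (0.0561 to 0.0874), and Rxra without lean 80% array 2, 3 or 4 or obese 80% array 1, 2 or 3 (0.0503 to 0.165).

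**Figure D3:**
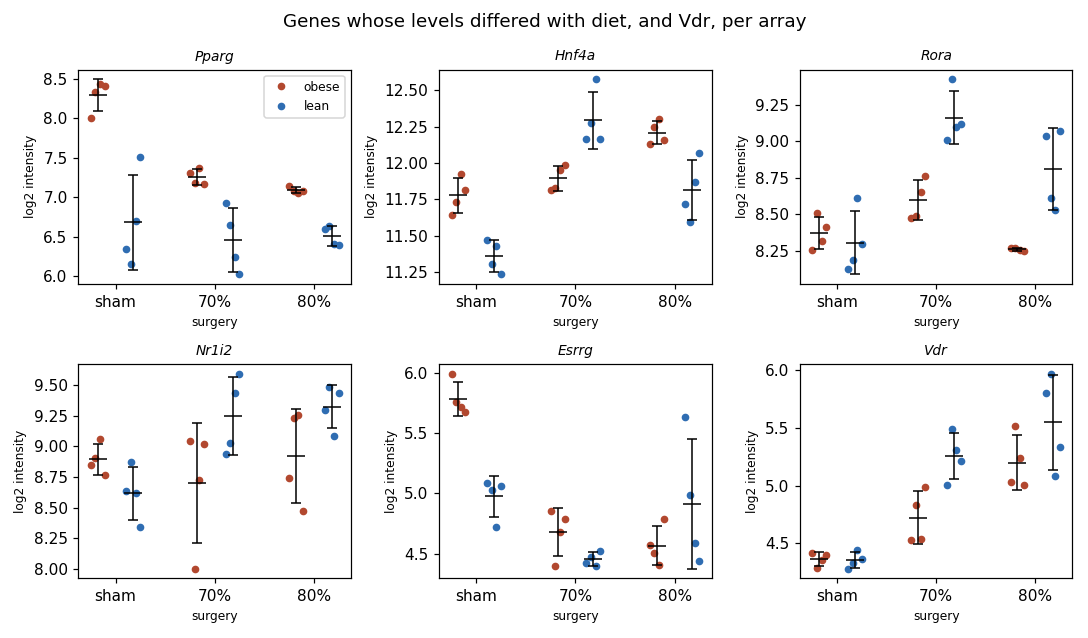
Log2 intensity (vertical axes) of 6 genes that differed with diet after at least 1 kind of surgery, on each of the 24 arrays, by surgery (horizontal axes), with obese arrays left of lean arrays and bars for the group mean and SD (n = 4). Pparg reads 8.01 to 8.43 in obese sham and 6.16 to 7.52 in lean sham livers, and Rora reads 8.25 to 8.27 on the 4 obese 80% arrays and 8.53 to 9.07 on the lean 80% arrays.

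The response to hepatectomy itself was set between diets by the interaction, which is the obese log2 fold change minus the lean one. At 70% hepatectomy 5 members passed, all with a lower value in obese mice, where 18.1% of all genes passed (9.82% with a higher value and 8.31% with a lower one). They were Hnf4a (-0.82 ± 0.15, adjusted p = 0.000754), Rora (-0.63 ± 0.18, 0.0159), Esrra (-0.54 ± 0.16, 0.0228), Nr1i2 (-0.82 ± 0.28, 0.0466) and Pparg (-0.82 ± 0.29, 0.0499). For Hnf4a, Rora and Nr1i2 the lean rise had no called counterpart in obese mice. For Pparg the fall was called in obese mice alone, and for Esrra it was larger there. With slides as a random block Hnf4a stayed past the threshold (-0.74, adjusted p = 0.0109), and Esrra (-0.60, 0.0551), Rora (-0.64, 0.0639), Nr1i2 (-0.83, 0.137) and Pparg (-0.78, 0.164) did not. The Nr1i2 interaction was lost without any 1 of 14 arrays (adjusted p 0.0507 to 0.105) and the Pparg interaction without any 1 of 20 (0.0513 to 0.117). That of Esrra was lost without lean 70% array 3 (0.0552) and under upper-quartile scaling (-0.44, 0.0784).

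At 80% hepatectomy 4 members passed, again all with a lower value in obese mice, where 11.0% of all genes passed (6.51% higher, 4.52% lower). They were Esrrg (-1.16 ± 0.24, adjusted p = 0.00354), Pparg (-1.03 ± 0.29, 0.0226), Nr1i3 (-0.87 ± 0.20, 0.00654) and Rora (-0.62 ± 0.18, 0.0265). The Esrrg value depends on the detection limit, since 1 obese 80% and 2 lean 80% arrays detected it, and its second probe gave -0.79, also past the threshold. With the slide in the model Esrrg (-0.84, adjusted p = 0.0399) passed, and Nr1i3 (-0.79, 0.0831), Rora (-0.61, 0.136) and Pparg (-0.80, 0.243) did not. The Pparg interaction was lost without lean sham array 2 (0.0535), and that of Rora without lean sham array 1 or 2, obese sham array 2 or 4 or lean 80% array 1 or 4 (0.0501 to 0.0599). Across the 25 members, the obese and lean log2 fold changes correlated with r = 0.79 and rho = 0.79 at 70%, and with r = 0.86 and rho = 0.86 at 80%. The same values over all genes were 0.75 and 0.63 at 70% and 0.84 and 0.79 at 80%. Genes are not independent replicates, and no test was made of these correlations.

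**Figure D4:**
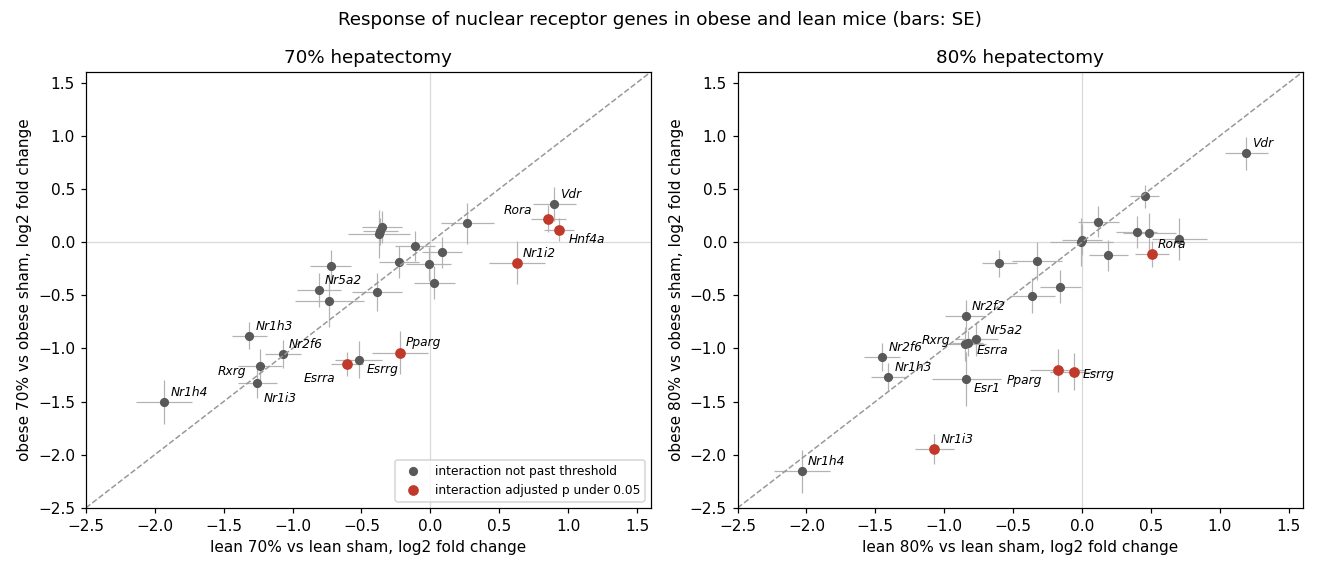
Log2 fold change after hepatectomy in obese mice (vertical axes) against lean mice (horizontal axes) for the 25 members, at 70% and 80% hepatectomy, with SE bars and red points where the interaction had an adjusted p under 0.05. All red points lie below the dashed line of equal change, among them Hnf4a at 0.12 in obese and 0.93 in lean mice at 70%.

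Between the resection sizes the shares of members called, in the model without the slide, were near those of all genes. In obese mice 2 were lower after 80% than after 70% and 0 higher, where 7.86% of all genes differed (3.55% lower and 4.31% higher). They were Nr1h4 (-0.65 ± 0.20, adjusted p = 0.0486) and Nr1i3 (-0.61 ± 0.14, 0.0108), both of which also fell in every comparison with sham. The groups did not overlap for 11 members, against 15.0% of all genes. The Nr1h4 call was lost without any 1 of 17 arrays (0.0509 to 0.185), and that of Nr1i3 without obese 70% array 3 (0.0546). With slides as a random block both were lost (Nr1h4 0.0776, Nr1i3 0.0540), and with the slide in the model Nr1h4 stayed (-1.21, adjusted p = 0.0372) and Nr1i3 did not (-0.58, 0.193). Newly called with the slide in the model were Esr1 (-1.68, 0.0124), Ppard (0.996, 0.0309), Nr1h3 (-0.71, 0.0498) and Vdr (0.00514, no exact size). Without background correction Nr1h3 (-0.36, 0.0476) and Hnf4a (0.31, 0.0452) were newly called.

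In lean mice 2 members were higher and 2 lower after 80% than after 70%, where 16.6% of all genes differed (7.02% higher and 9.60% lower). Rarb was higher (adjusted p = 0.00638), with 2 lean 70% arrays detected and no exact size. Rxra (0.47 ± 0.15, 0.0313) was higher, and Hnf4a (-0.48 ± 0.11, 0.00424) and Nr2f6 (-0.38 ± 0.13, 0.0480) were lower. The groups of 2 members, Rarb and Hnf4a, did not overlap, against 12.6% of all genes. The Nr2f6 call was lost without any 1 of 20 arrays (0.0507 to 0.164) and with slides as a random block (0.101), and that of Rxra without lean 70% array 2, 3 or 4 or lean 80% array 2 or 3 (0.0547 to 0.0934) and with slides as a random block (0.0931).

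Genes that work with these receptors were read from lists of textbook partners and targets, whose counts stand against the shares of all genes that rose or fell given above. Their values come from the model without the slide, and no slide setting is given for them. Between diets and in the interaction at 70%, the slide and the group cannot be told apart. Among the members, 1 of 5 interactions at 70% stayed with slides as a random block, and 1 of 4 at 80% with the slide in the model. Of 11 measured coregulators and other receptors, 1 rose and 2 fell in obese 70%, 0 rose and 4 fell in obese 80%, 4 rose and 2 fell in lean 70%, and 3 rose and 3 fell in lean 80%. Ppargc1a, which encodes the coactivator PGC-1 alpha, rose in lean 70% (1.86 ± 0.26, adjusted p = 2.71e-06) and lean 80% (2.16 ± 0.26, 2.35e-07). Ppargc1b, for the related PGC-1 beta, fell in obese 70% (-2.32 ± 0.21, 4.58e-09) and obese 80% (-2.07 ± 0.21, 1.65e-08). The diet interaction of Ppargc1a at 80% was -1.89 ± 0.37 (adjusted p = 0.00222) and that of Ppargc1b -1.52 ± 0.30 (0.00208).

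Targets of PPAR alpha moved by diet although Ppara itself did not pass. Of 14 measured targets, 4 rose and 5 fell in obese 70%, 4 rose and 5 fell in obese 80%, 8 rose and 1 fell in lean 70%, and 10 rose and 0 fell in lean 80%. The list medians were -0.34, -0.22, 1.14 and 1.76. Pdk4, a brake on pyruvate oxidation, rose in all 4 (3.96, 5.19, 5.67 and 6.82), as did Plin2, a lipid droplet coat gene (1.81, 2.25, 3.28 and 3.31). Between obese sham and lean sham 10 of the 14 were higher and 0 lower (median 1.07), where 6.10% of all genes were higher. Of these 10, Cd36 was detected on 0 arrays of each lean group. It passed the detection filter through obese arrays alone, so its direction is not independent of the filter. Among the 10 was Cyp4a14 (adjusted p = 1.31e-05), with 2 lean sham arrays detected and no exact size. Its interaction passed with a lower value in obese mice at 70% (adjusted p = 0.00253) and at 80% (0.00317). The interaction passed for 6 targets at 70% and 9 at 80%, all with a lower value in obese mice (medians -1.01 and -1.13), as 8.31% and 4.52% of all genes had. For all genes the median was between -0.06 and 0.04 in each of these comparisons.

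Targets of FXR and LXR are known to include genes that the receptor raises and genes that it represses. Of 8 measured FXR targets, 1 rose and 4 fell in obese 70%, 1 rose and 5 fell in obese 80%, 2 rose and 3 fell in lean 70%, and 2 rose and 4 fell in lean 80%. Cyp7a1, which encodes the enzyme that limits bile acid synthesis and is known to be repressed through FXR, fell in all 4. It was detected on 0 lean 80% arrays, at least 75.0-fold lower than in lean sham (adjusted p = 9.70e-09), and on 1 obese 70%, 1 obese 80% and 2 lean 70% arrays. Slc51b, part of a bile acid exporter raised by FXR, rose in all 4 (3.56, 3.79, 3.19 and 2.15), and Cyp8b1, of bile acid synthesis, fell in all 4 (-2.89, -2.87, -2.09 and -2.65). Of 9 LXR targets, 1 rose in each comparison and 4, 4, 3 and 2 fell in obese 70%, obese 80%, lean 70% and lean 80%. Srebf1, the gene of a lipogenic factor raised by LXR, fell in all 4 (-1.62, -1.82, -3.87 and -2.84), and so did Abcg8, of sterol export (-0.95, -1.39, -1.83 and -1.71). Abca1, another sterol exporter, was the gene that rose each time, with 2 sham arrays of each diet detected and no exact size.

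Of 13 measured CAR and PXR targets, 2 rose and 0 fell in obese 70%, 1 rose and 1 fell in obese 80%, 3 rose and 1 fell in lean 70%, and 3 rose and 0 fell in lean 80%. Over all genes 22.2%, 24.1%, 21.4% and 23.9% rose and 24.6%, 28.7%, 26.2% and 31.0% fell in the same comparisons. Cyp2b10, the classical CAR target, rose in obese 70% (1.34 ± 0.28, adjusted p = 0.000368), lean 70% (1.56 ± 0.28, 5.63e-05) and lean 80% (2.83 ± 0.28, 8.71e-09). In obese 80% it was 0.63 ± 0.28 (adjusted p = 0.0600), not past the threshold. Between obese and lean livers 6 of the 13 were higher after sham surgery, 8 after 70% hepatectomy and 5 after 80%, and 0 were lower, where 6.10%, 16.9% and 13.5% of all genes were higher and 6.09%, 13.7% and 9.46% lower. Cyp2b9 was at least 47.8-fold higher in obese sham than in lean sham, where 0 arrays detected it (adjusted p = 5.25e-08), Cyp2b13 at least 6.08-fold (0.000303), and Cyp2b10 was higher by 3.01 ± 0.28 (1.07e-07). In lean mice Cyp2b13 was detected on 0 arrays, and Cyp2b9 on 1 array, of lean 70%. Both passed the detection filter through obese arrays, so their direction against lean livers is not independent of the filter. Both are among the 6, 8 and 5 counted as higher. The Cyp2b genes are related in sequence, so a probe of one may also bind RNA of another, which was not tested. In lean 80% all 4 arrays detected Cyp2b10, and 0 detected Cyp2b9 or Cyp2b13.

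Of 9 measured glucocorticoid targets, 6 rose and 2 fell in obese 70%, 6 rose and 1 fell in obese 80%, 6 rose and 1 fell in lean 70%, and 7 rose and 1 fell in lean 80%. Igfbp1, which encodes a binding protein of insulin-like growth factors, rose by 4.99 in obese 70%, 5.29 in obese 80%, 5.80 in lean 70% and 6.27 in lean 80%. Tsc22d3, which encodes the glucocorticoid-induced protein GILZ, was the target that fell in all 4 (-2.06, -2.43, -1.80 and -2.45). Of 13 HNF4A targets, 1 rose in each comparison and 5, 6, 5 and 5 fell in obese 70%, obese 80%, lean 70% and lean 80%, among them G6pc, of glucose output (-3.20, -3.96, -1.45 and -2.05). The median of the HNF4A targets was -0.03 in obese 70%, -0.29 in obese 80%, -0.08 in lean 70% and -0.07 in lean 80%. Of 6 thyroid hormone targets, 2 fell and 0 rose in each obese comparison, 3 fell and 1 rose in lean 70%, and 3 fell and 3 rose in lean 80%. Dio1, which encodes a deiodinase that activates thyroid hormone, fell in all 4 (-0.82, -0.94, -1.03 and -0.85). Of 8 genes of retinoid response and handling, 1, 1, 1 and 2 rose and 2, 2, 2 and 3 fell in obese 70%, obese 80%, lean 70% and lean 80%. The member Rarb is 1 of these 8, and its lean 80% rise, lost under several settings, is 1 of the 2. Tgm2, a transglutaminase gene raised by retinoic acid, rose in all 4 (2.06, 2.38, 2.77 and 2.88). Cyp8b1 counts in both the FXR and the HNF4A list, and Fgf21 in both the PPAR alpha and the thyroid hormone list. The lists describe expression of known targets and give no measure of receptor activity.

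**Figure D5:**
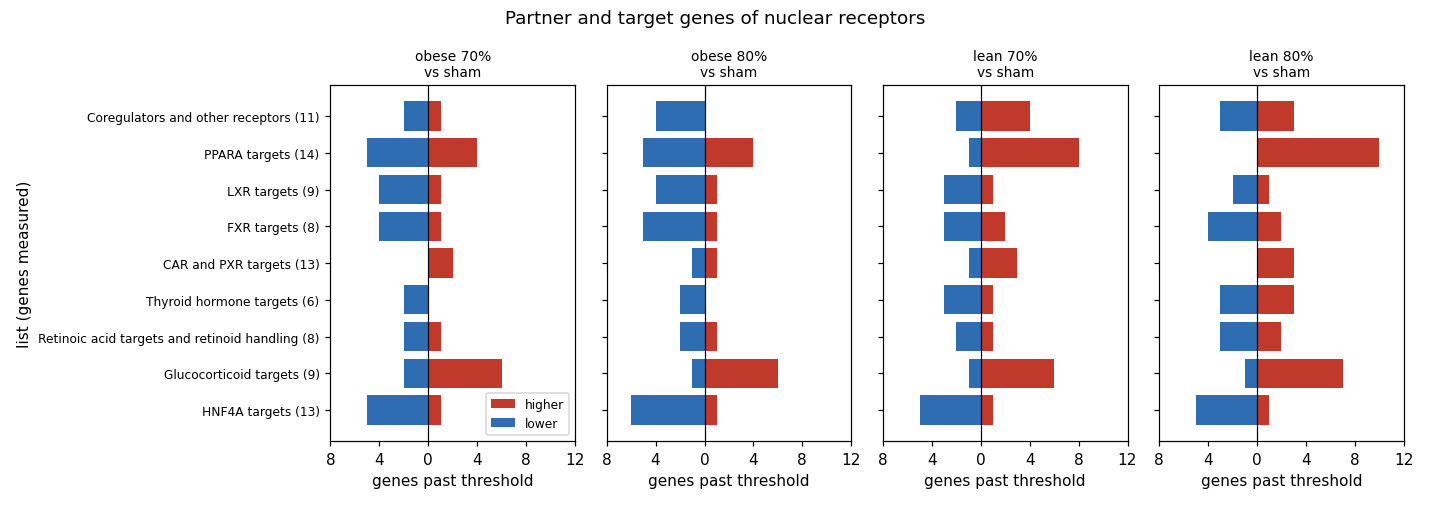
Number of genes past the threshold (horizontal axes, higher to the right in red and lower to the left in blue) in 9 lists of partner and target genes (vertical axis, measured genes in parentheses), for each hepatectomy against sham of the same diet. The PPARA list has 4 higher and 5 lower genes in both obese panels, 8 higher and 1 lower in lean 70%, and 10 higher and 0 lower in lean 80%.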

How the data were processed

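Liver RNA was measured on 24 Illumina BeadChip arrays, with 6 arrays on each of 4 slides. The authors deposited a table of probe intensities on a linear scale that were not normalized, together with a detection score from 0 to 1 per probe, per the file headers. One minus the deposited score was used as the detection p-value. The authors also deposited log2 values in the series matrix, centred on 0 for each probe, which quantile normalization of the intensities without background correction matched to within 0.00957 after the same centring. All columns were mapped to a labelled sample.

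Intensities were background-corrected with normexp (offset 16), quantile-normalized and set to log2 in limma 3.58.1 (R 4.3.3), which narrows the differences of dim probes. Probes with 1 gene and detection p under 0.05 on at least 4 arrays were kept, and the passing probe with the highest mean signal stood for its gene. A linear model over all 24 arrays and 6 groups (lmFit and eBayes, 18 residual degrees of freedom) gave 11 comparisons, with p-values adjusted by Benjamini-Hochberg over 10765 genes and a threshold of 0.05. Where all arrays of the lower group lacked detection, a lower bound of the fold was computed against the lowest detected signal, and where 1 or 2 arrays of it were detected no fold is given. The fit was tested on simulated data. The number of arrays limits the precision.

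Every member was named, with detection stated for some of them. The rule for full statistics was the called members, at most 6 each way per comparison, and 13 genes are given on every array. Statistics of further called members, and of members that were not called, were added after their values were seen. Of each other list at most 3 called genes were named. The members and lists were chosen with earlier results of these data known. Probe genes came from the platform annotation, and promoter windows of 250 bases from RefSeq on GRCm38.p6. Figures were drawn with matplotlib 3.10.9 (Python 3.11.15). Alternatives changed the background correction, the normalization, the offset, the filter, the probe choice, the slide and the replicate block, and left out each array.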

Additional observations from a re-analysis of the deposited data

Results flagged for a closer look

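Chance sets 1 array apart in about 1 in 20 groups, and here it was so in 7 of 150 groups of 4 (25 genes in 6 groups). The arrays far from the others of their group were lean 80% array 3 for Ppara (7.14 log2 intensity, others 5.92 to 6.11), lean 70% array 2 for Ppard (8.26, others 7.78 to 7.86) and lean 70% array 4 for Rxrg (4.54, others 4.73 to 4.76). They were further obese 70% array 4 for Nr5a2 (5.93, others 6.33 to 6.35), lean 80% array 4 for Esrra (8.0, others 8.33 to 8.40), lean sham array 4 for Nr2f6 (10.19, others 9.95 to 9.96) and obese sham array 3 for Nr6a1 (6.72, others 6.26 to 6.32). The calls of Esrra and Nr2f6 against sham were not lost without these arrays, and that of Nr5a2 in obese 70% was.

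The response to hepatectomy differed between obese and lean mice by the limma interaction in 5 genes at 70%, by log2 -0.82 for Pparg, -0.82 for Nr1i2, -0.82 for Hnf4a, -0.63 for Rora and -0.54 for Esrra. At 80% it differed in 4 genes, by -1.03 for Pparg, -0.87 for Nr1i3, -0.62 for Rora and -1.16 for Esrrg. Rora and Pparg were in both sets. The slide and the group cannot be told apart for the values at 70%.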

How the results depend on the processing

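Of the 91 called values of the members over the 11 comparisons, 65 stayed past the threshold with the same sign whichever array was left out, 59 under every other alternative run, and 56 under all. Slide settings ended most other calls. With the slide as a fixed term 17 of the 32 calls that could be fitted stayed, and with slides as a random block (consensus correlation 0.128) 73 of 91. The 1 value that changed sign was Rxrb in lean 70%, which was 0.0690 (log2) with the slide as a fixed term. The 6 genes that differed between obese and lean sham became 2 with the slide as a fixed term and 2 within slide 1. The 8 at 70% became 5 with slides as a random block, and the 5 at 80% became 3 without the filter on dim probes, 3 with the slide as a fixed term and 2 within slide 4, of which 2 and 1 were among the 5 and the other was Esr1, newly called (-1.08). Between resection sizes the 4 genes in lean mice became 2 with slides as a random block. The 2 in obese mice became 4 without background correction, 4 under upper-quartile scaling, 4 with an offset of 50, 1 without the filter, 1 with each probe on its own, 0 with slides as a random block and 5 with the slide as a fixed term, of which 1 was among the 2. The interaction at 70% passed for 3 genes without the filter and 1 with slides as a random block, and that at 80% for 1 with the slide as a fixed term. The cause of these moves was not tested. Upper-quartile scaling moved the median of all genes by 0.103 in the 70% interaction. Leaving out each array gave 9 to 12 called genes in obese 70%, 14 to 15 in obese 80%, 13 to 16 in lean 70%, 14 to 17 in lean 80%, 3 to 7 between sham groups, 6 to 10 and 3 to 5 between diets at 70% and 80%, 0 to 7 and 2 to 5 between sizes in obese and lean mice, and 3 to 6 and 2 to 4 for the interactions at 70% and 80%.

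Replicate numbers did not pair the arrays: over 60 pairs with the same number the median correlation of deviations was 0.010, 6 exceeded 0.1, and 7 of 24 arrays correlated best with their own number. With the replicate block the counts were 11, 15, 15 and 16 for obese 70%, obese 80%, lean 70% and lean 80%, 7, 7 and 4 between diets after sham surgery, 70% and 80%, 2 and 3 between sizes in obese and lean mice, and 4 and 4 for the interactions. Probes near background, as for Vdr, Nr4a2, Nr3c1, Rxrg, Rarg and Esrrg, limit the size of a change that can be given.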
